A study of Mus musculus with 32 samples.

Results

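Lysosomal enzymes and the proton pump that acidifies them were followed as 38 named genes through 6 groups of libraries from mouse gliomas. The genes were taken by name from a list drawn up with earlier results of these data known: 13 hydrolases, 2 precursors of small secreted or activator proteins, 7 proteins of the lysosomal membrane, 13 genes of the Atp6 proton pump (5 of the membrane sector V0, 6 of the catalytic sector V1 and 2 accessory subunits) and 3 transcription factors of the MiT/TFE family. All 38 were found among the 23337 genes of the count table, and all passed the filter on low counts in the 3 fits that the results rest on. Atp6v0d2, close to 0 in most libraries, passed it through the groups where it was high and dropped out of 1 alternative fit in TAMs and 5 in TCs. Its levels are therefore given with no test of their own, and its fold changes only where settings are compared. Main counts of members that include Atp6v0d2 are also given without it or said to include it.

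Lysosomes are acidic organelles in which hydrolases cut proteins, lipids and glycans that the cell has taken up or set aside for recycling. The V-ATPase pumps protons across their membrane: its V1 sector splits ATP in the cytosol, and its V0 sector carries the protons through. TFEB, TFE3 and MITF bind the motif TCACGTG in promoters of lysosomal genes and raise their transcription, and phagocytes such as macrophages and microglia are known for a large lysosomal compartment.

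Gliomas were started in XFM mice, whose genotype is not spelled out in the labels, by intracranial injection of chicken fibroblasts (DF-1) that carried PDGFB, and the mice were then dosed daily with vehicle or BLZ945, which inhibits CSF-1R, the receptor on which macrophages and microglia depend. Injection took place at 5 to 6 weeks of age, dosing began at a tumour volume of 20 to 40 mm3, and mice were taken at the onset of symptoms or at 26 weeks of age. Rebound and Endpoint are the BLZ945 groups, Endpoint being the one with tumours labelled dormant, and Vehicle is the control. From papain-digested tumours, CD11b+ Gr1- cells were sorted as tumour-associated macrophages and microglia (TAMs) and PDGFRA+ cells as tumour cells (TCs). TAMs gave 5 Rebound, 6 Endpoint and 5 Vehicle libraries, and TCs likewise gave 5 Rebound, 6 Endpoint and 5 Vehicle libraries. They came from 17 mice, and for 15 of these both cell types were sequenced. Both sorts are mixtures of whatever cells carry the sorted marker, and all mice share the PDGFB-driven tumour model.

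The promoters of the members are shown here for the motif of the MiT/TFE factors, since the factors and their known targets are both members. RefSeq gave at least 1 promoter of 300 bases (250 before to 50 after the annotated start, build GRCm38.p6) for 33 of the 38 genes. It gave none for Asah1, Atp6v0d2, Atp6v1b2, Atp6v1c1 and Atp6v1h. Mitf, Tfeb and Atp6v0c had 3 such windows each, and Tfe3, Psap and Lgmn had 2 each. Members with several windows were counted as matching if any window held the motif. Lgmn held it in the window at chr12:102439043-102439342 and not in the other, at chr12:102439679-102439978. TCACGTG, searched on both strands (CACGTGA on the other), was present in 9 of the 33 (27.27%), against 4.292% of the 27025 genes searched. The 9 were the hydrolase genes Gaa, Glb1, Lgmn and Naglu, the membrane protein genes Lamp1 and Mcoln1, and the pump genes Atp6v0b, Atp6v0d1 and Atp6v1a. The longer palindrome TCACGTGA, which contains TCACGTG, was in Mcoln1, Atp6v0d1 and Atp6v1a, or 9.091% of the 33, against 1.125% of the genes searched. No TCACGTG was in the windows of the 3 factors or of the 2 precursors. A match says only that the letters are there. Below are 6 of the 9, chosen because the results return to these genes, 5′ to 3′ with the motif in capitals: Gaa at chr11:119267713-119268012 (plus strand), Lgmn at chr12:102439043-102439342 (minus), Lamp1 at chr8:13158911-13159210 (plus), Atp6v0b at chr4:117887280-117887579 (minus), Atp6v0d1 at chr8:105566015-105566314 (minus) and Atp6v1a at chr16:44139210-44139509 (minus).
Gaa: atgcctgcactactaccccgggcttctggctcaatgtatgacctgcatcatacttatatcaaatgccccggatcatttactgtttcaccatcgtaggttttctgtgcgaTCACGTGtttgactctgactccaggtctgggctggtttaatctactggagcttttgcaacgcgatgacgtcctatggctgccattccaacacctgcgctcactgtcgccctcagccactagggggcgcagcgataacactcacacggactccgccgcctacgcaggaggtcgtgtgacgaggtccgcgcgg
Lgmn: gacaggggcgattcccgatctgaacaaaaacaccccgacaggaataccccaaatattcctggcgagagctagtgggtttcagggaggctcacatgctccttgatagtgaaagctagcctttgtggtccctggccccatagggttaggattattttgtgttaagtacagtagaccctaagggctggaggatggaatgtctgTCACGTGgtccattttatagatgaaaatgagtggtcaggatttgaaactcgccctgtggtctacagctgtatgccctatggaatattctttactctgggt
Lamp1: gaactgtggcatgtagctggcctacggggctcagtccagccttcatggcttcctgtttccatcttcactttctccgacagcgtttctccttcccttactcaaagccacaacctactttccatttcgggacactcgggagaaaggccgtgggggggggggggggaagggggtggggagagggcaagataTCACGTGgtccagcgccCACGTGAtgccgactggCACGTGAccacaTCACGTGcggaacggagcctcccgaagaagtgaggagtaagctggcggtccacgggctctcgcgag
Atp6v0b: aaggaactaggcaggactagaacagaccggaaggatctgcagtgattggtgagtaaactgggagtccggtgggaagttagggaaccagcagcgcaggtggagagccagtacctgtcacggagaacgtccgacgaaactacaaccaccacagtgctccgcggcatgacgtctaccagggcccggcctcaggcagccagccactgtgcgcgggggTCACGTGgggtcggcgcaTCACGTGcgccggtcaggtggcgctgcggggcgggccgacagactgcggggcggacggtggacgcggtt
Atp6v0d1: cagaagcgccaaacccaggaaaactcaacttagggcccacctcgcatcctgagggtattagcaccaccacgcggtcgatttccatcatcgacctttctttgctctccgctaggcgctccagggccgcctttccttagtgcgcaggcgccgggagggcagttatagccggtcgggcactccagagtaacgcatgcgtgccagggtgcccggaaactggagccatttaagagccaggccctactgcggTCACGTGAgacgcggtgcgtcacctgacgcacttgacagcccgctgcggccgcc
Atp6v1a: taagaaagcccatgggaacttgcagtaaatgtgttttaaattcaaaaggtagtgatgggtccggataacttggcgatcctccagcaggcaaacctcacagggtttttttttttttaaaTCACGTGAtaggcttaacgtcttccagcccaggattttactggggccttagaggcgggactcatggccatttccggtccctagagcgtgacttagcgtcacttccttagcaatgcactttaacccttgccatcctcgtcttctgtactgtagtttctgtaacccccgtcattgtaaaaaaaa

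The libraries held 15.4 to 19.6 M counts in Rebound, 9.54 to 15.8 M in Endpoint and 25.6 to 30.4 M in Vehicle TAMs, and 10.5 to 16.5 M in Rebound, 4.18 to 14 M in Endpoint and 13.1 to 23 M in Vehicle TCs. All counts of the 22 BLZ945 libraries were even, unlike those of the Vehicle libraries, so the way of counting and the treatment cannot be told apart. Itgam, the gene of the sort marker CD11b, averaged 1606 CPM in Rebound, 848 CPM in Endpoint and 3158 CPM in Vehicle TAMs. Csf1r, the gene of the receptor that BLZ945 inhibits, averaged 5393 CPM in Rebound, 8386 CPM in Endpoint and 13901.5 CPM in Vehicle TAMs. The part of these levels in the results was not tested. In TC Endpoint libraries, 11 tumour cell markers summed to 306 to 502 CPM, and to 2319 CPM in that of mouse 49843, against 2284 to 7792 CPM in TC Vehicle. The Endpoint library of mouse 49843 also held the highest sum of myeloid markers among TC libraries, 7536 CPM. In TC Endpoint libraries, 8 choroid plexus and ependyma markers summed to 5235 to 186170 CPM, against 9.33 to 516 CPM in TC Vehicle, so these libraries went against their label in part. Of the TC libraries, Endpoint 49843 and 49845 stood apart from the other 4 by T and NK markers (31.4 and 10.4 CPM in sum, against 3766 to 5152 CPM), and Rebound 49827 by 2987 CPM of the same markers. TC Vehicle libraries held 4.80 to 11.7 CPM of them. Fits without the libraries that stood apart thus keep the Endpoint TC libraries with the high T and NK sums. Among TAM Vehicle libraries, those of mice 57098 and 57682 stood apart by a low share of ribosomal Rn45s (1.71 and 0.391%, against 6.83 to 7.66% in the other 3). The TC Vehicle libraries of the same mice were low as well (2.07 and 0.875%, against 7.97 to 11.1% in the other 3). Among TAM Rebound libraries, those of mice 49041, 49059 and 49849 held 8 T and NK cell markers at 139, 229 and 44.1 CPM in sum, against 8.15 and 12.1 CPM in the other 2. Levels are CPM, counts relative to library size after TMM scaling within a cell type, unless another scale is named. Levels of cell markers, and levels compared between cell types, are CPM with all 32 libraries scaled together. Values of single libraries are given in the order of mice 54359, 54363, 57098, 57682 and 64247 for Vehicle and 49041, 49059, 49827, 49834 and 49849 for Rebound TAMs.

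Per kilobase of exon, and with all 32 libraries scaled together, Lgmn was the most abundant member in TAMs. Lgmn encodes legumain, a protease that cuts after asparagine, and its level was 3478 ± 597 CPM per kb in Rebound, 4788 ± 221 in Endpoint and 6038 ± 349 in Vehicle TAMs (mean ± SD, n = 5, 6 and 5). Laptm5, a lysosomal membrane protein of blood cells, followed with 1363 ± 202 CPM per kb in Rebound, 1455 ± 87.9 in Endpoint and 2883 ± 949 in Vehicle TAMs. Next in the Vehicle group stood Psap, the precursor of the saposins that help to break down sphingolipids, and Grn, the precursor of granulins, with 2097 ± 941 and 2079 ± 589.5 CPM per kb, and these do not differ beyond their spread. The median over hydrolases was 172 CPM per kb in Rebound, 101 in Endpoint and 207 in Vehicle TAMs. Over pump genes, the median was 48.8 CPM per kb in Rebound, 24.8 in Endpoint and 61.2 in Vehicle TAMs. In TCs the hydrolase median was 21.2 CPM per kb in Rebound, 39.9 in Endpoint and 18.9 in Vehicle, and the pump median 22.5 in Rebound, 41.8 in Endpoint and 28.0 in Vehicle. Within each TAM group the hydrolases stood above the pump, whereas the pump median was the higher one within each TC group, with the widest ratio in Vehicle. Levels of the 3 factors were lower, at 13.8 ± 4.63 (Tfe3), 6.22 ± 1.34 (Mitf) and 5.47 ± 3.51 (Tfeb) CPM per kb in Vehicle TAMs.

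In Endpoint TAMs, 23 of the 38 members fell relative to Vehicle TAMs and 1 rose (edgeR quasi-likelihood test, adjusted p under 0.05), whereas 19.3% of all genes tested were called lower and 13.7% higher. Of the 13 pump genes 11 fell, among them all 6 of the V1 sector, and of the 13 hydrolases 7 fell. Grn and, of the factors, Tfe3 and Mitf fell as well, and the one member that rose was Lamp1. Over the members the median log2 fold change was -0.66, against -0.03 over all genes, and over pump genes and hydrolases it was -0.75 and -0.50; the difference between those classes was not tested. Values of the Endpoint and Vehicle groups did not overlap for 13 of the 38 members, lower in Endpoint in each case, against 11% of all genes lower and 8.39% higher. In sorted bulk cells, fewer cells of a type and less RNA per cell cannot be told apart.

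Among the hydrolases, the lowest adjusted p belonged to Gaa, acid alpha-glucosidase, which degrades glycogen. Gaa had 166, 182 and 244 CPM (lowest, median and highest) in Endpoint TAMs, and 912, 516, 316, 339.9 and 507 CPM in Vehicle TAMs. Every Endpoint library lay below every Vehicle library, and the log2 fold change was -1.45 (SE 0.25, adjusted p = 0.000261), a 2.74-fold lower level. Neu1, the sialidase that removes terminal sialic acids, had 28.7, 42.5 and 55.3 CPM in Endpoint TAMs, and 119.7, 101, 54.7, 58.9 and 129 CPM in Vehicle TAMs. The Vehicle values of mice 57098 and 57682 were the low ones and came close to the highest Endpoint value, so the groups overlapped, with a log2 fold change of -1.13 (SE 0.23, adjusted p = 0.000953). Lgmn had 8967, 9411 and 10104 CPM in Endpoint TAMs, and 11052, 12242, 9913, 10895 and 11138 CPM in Vehicle TAMs. Its groups overlapped, and the log2 fold change was -0.22 (SE 0.15, adjusted p = 0.282), not past the threshold. The other hydrolases called lower were Tpp1, a tripeptidyl peptidase (-0.97), Hexa, the alpha subunit of beta-hexosaminidase (-0.84), Glb1, a beta-galactosidase (-0.78), Ppt1, which removes palmitate from proteins (-0.55), and Manba, a beta-mannosidase (-0.50). The 5 not named so far, Gusb, Naglu, Man2b1, Asah1 and Smpd1, ran between -0.43 (Naglu) and -0.11 (Asah1) and did not pass. Without the Vehicle library of mouse 54359, the highest for Hexa and Glb1, their calls were lost (adjusted p = 0.0899 and 0.078), and Manba's was lost without mice 57098 and 57682 (adjusted p = 0.0715).

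Of the precursors, Grn had 2012, 2273 and 3025 CPM in Endpoint TAMs, and 8238, 4789, 5036, 4710.2 and 5529 CPM in Vehicle TAMs. The groups did not overlap, the Vehicle library of mouse 54359 was far above the rest, and the log2 fold change was -1.26 (SE 0.20, adjusted p = 0.000154). Psap had 3127, 3567 and 3956 CPM in Endpoint TAMs, and 7042, 4491, 5189, 1682 and 4129.9 CPM in Vehicle TAMs. Here the Vehicle library of mouse 57682 was below all Endpoint libraries, and the log2 fold change of -0.32 (SE 0.25, adjusted p = 0.347) did not pass; without that library it was -0.53 (adjusted p = 0.045).

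The 7 membrane proteins moved in both directions: 2 fell, 1 rose and their median log2 fold change was -0.19. Laptm5 had 4327, 4707 and 4956 CPM in Endpoint TAMs, and 13155, 8209, 7277, 6741 and 7408 CPM in Vehicle TAMs. Its groups did not overlap, and the log2 fold change was -0.86 (SE 0.18, adjusted p = 0.00138). Cd63, a tetraspanin of late endosomes, had 196, 288 and 714 CPM in Endpoint TAMs, and 1092, 891, 453, 705 and 1268 CPM in Vehicle TAMs. The groups overlapped through 1 high Endpoint library, that of mouse 49843, and 1 low Vehicle library, that of mouse 57098, with a log2 fold change of -1.31 (SE 0.30, adjusted p = 0.00239); the annotation holds a Cd63 pseudogene, so this count is uncertain. Lamp1, the most used marker protein of the lysosomal membrane, is named after its values were seen, as the one member that rose. It had 326, 393 and 507 CPM in Endpoint TAMs, and 289.9, 331, 125, 139 and 191 CPM in Vehicle TAMs. The groups overlapped at the highest Vehicle library, the log2 fold change was 0.91 (SE 0.26, adjusted p = 0.0115), and without mice 57098 and 57682, both low for Lamp1, the call was lost (0.58, adjusted p = 0.0796). Lamp2, Scarb2, Laptm4a and Mcoln1 did not pass, with log2 fold changes between -1.01 and 0.03. Of Lamp1's exon bases 9.31% are shared with Grtp1 on the opposite strand, as are 12.8% of Hexa's with Tmem202 and 11.8% of Atp6v0b's with the antisense gene Gm12841, and the kit did not mark strand, so reads of these pairs cannot be told apart there.

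In the V0 sector, Atp6v0a1, an isoform of the large subunit that forms the proton path, had 81.8, 105 and 143 CPM in Endpoint TAMs, and 415, 327, 253, 287 and 293 CPM in Vehicle TAMs. The groups did not overlap, and the log2 fold change was -1.52 (SE 0.23, adjusted p = 0.000106), the lowest of all 38 members. Atp6v0c, the subunit that makes up most of the rotor ring, had 11.1, 12.6 and 17 CPM in Endpoint TAMs, and 38.4, 31, 23, 20.3 and 32.3 CPM in Vehicle TAMs. These groups too were apart, with a log2 fold change of -1.15 (SE 0.20, adjusted p = 0.000248); the annotation holds near-identical Atp6v0c pseudogenes, so the count of Atp6v0c is uncertain. Atp6v0b, another ring subunit, had 393, 519 and 569.5 CPM in Endpoint TAMs, and 1186, 1017, 508, 513 and 1022 CPM in Vehicle TAMs. The Vehicle libraries of mice 57098 and 57682 lay within the Endpoint range, and the log2 fold change of -0.75 (SE 0.22, adjusted p = 0.0146) lost its call without mouse 54359 (adjusted p = 0.054).

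Atp6v0d1 and Atp6v0d2 are alternative versions of the d subunit that joins V0 to the central stalk, Atp6v0d2 being the one known from osteoclasts and some macrophages. Atp6v0d1 had 71.4, 85.2 and 99.7 CPM in Endpoint TAMs, and 161, 137, 87.4, 100.4 and 217 CPM in Vehicle TAMs. The Vehicle library of mouse 57098 lay among the Endpoint values, and the log2 fold change was -0.73 (SE 0.20, adjusted p = 0.00738). Atp6v0d2 had 0, 0.148 and 7.23 CPM in Endpoint TAMs, and 4.56, 0.133, 0.359, 0.391 and 1.16 CPM in Vehicle TAMs. Both groups were near 0 apart from single libraries, and their ranges overlapped.

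All 6 V1 genes fell, with log2 fold changes between -1.06 (Atp6v1a, a catalytic subunit) and -0.56 (Atp6v1b2, the partner of the catalytic subunit in the ring). Atp6v1e1, a peripheral stalk subunit, had 52.4, 56.7 and 85.4 CPM in Endpoint TAMs, and 122, 135, 102, 118 and 129 CPM in Vehicle TAMs. Each Endpoint value was below each Vehicle value, and the log2 fold change was -0.95 (SE 0.15, adjusted p = 0.000147). Atp6v1c1, the subunit at the joint between V1 and V0, had 167, 211 and 269.7 CPM in Endpoint TAMs, and 369, 388, 350.4, 426 and 358 CPM in Vehicle TAMs. Its groups were apart as well, at -0.82 (SE 0.15, adjusted p = 0.000484), as were those of Atp6v1h, a regulatory subunit, at -0.70 (SE 0.14, adjusted p = 0.000802). The call of Atp6v1b2 (adjusted p = 0.0225) was lost when the Endpoint library of mouse 49823 or the Vehicle library of mouse 54359, 54363 or 64247 was left out (adjusted p = 0.0521, 0.0821, 0.0522 and 0.0536), and that of Atp6v1d, a subunit of the central stalk (adjusted p = 0.00725), without mice 57098 and 57682 (adjusted p = 0.0513). Of the accessory subunits, Atp6ap1, which is needed for pump assembly, had 596, 635 and 793 CPM in Endpoint TAMs, and 1729.5, 1239, 1036, 1181 and 1254 CPM in Vehicle TAMs. The groups did not overlap, with a log2 fold change of -0.97 (SE 0.15, adjusted p = 0.000135). Atp6ap2, also known as the prorenin receptor, had 272, 351 and 482 CPM in Endpoint TAMs, and 263, 232, 417, 401 and 251 CPM in Vehicle TAMs. Vehicle values of mice 57098 and 57682 were high and lay within the Endpoint range, and the log2 fold change was 0.19 (SE 0.19, adjusted p = 0.463); without these mice it was 0.53 (adjusted p = 0.026).

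Of the MiT/TFE factors, Tfe3 had 51, 55.6 and 85 CPM in Endpoint TAMs, and 150.5, 112, 82.3, 67.6 and 90.9 CPM in Vehicle TAMs. The groups overlapped, and the log2 fold change was -0.68 (SE 0.21, adjusted p = 0.0186), a call lost without the Vehicle library of mouse 54359 (adjusted p = 0.0792). Mitf had 12.5, 18.3 and 30.8 CPM in Endpoint TAMs, and 38, 25.5, 29.1, 34 and 24.3 CPM in Vehicle TAMs. Its groups overlapped too, and the log2 fold change of -0.63 (SE 0.24, adjusted p = 0.0478) lost its call in 12 of 18 alternatives (adjusted p = 0.0501 to 0.47), among them without the Vehicle library of mouse 54359, 57098 or 57682 or the Endpoint library of mouse 49823, 49825, 49830, 49831 or 49845. Tfeb had 20.1, 21.2 and 29.7 CPM in Endpoint TAMs, and 43.1, 32.1, 7.04, 9.93 and 30.1 CPM in Vehicle TAMs. The Vehicle values of mice 57098 and 57682 were below all Endpoint values and the other 3 above them, and the log2 fold change was -0.10 (SE 0.36, adjusted p = 0.848). Of the 9 members with TCACGTG in a promoter window 5 fell and Lamp1 rose, and of the 24 members whose windows lacked it 15 fell. Over all genes tested 19.3% were lower and 13.7% higher, and the part of the motif was not tested.

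With libraries scaled by their totals alone, the median of all genes stood at 0.39 and 12 members fell and 2 rose, Atp6ap2 beside Lamp1. Of all 13315 genes tested 1148 were lower and 3804 higher in that fit. Hydrolase and pump medians were -0.08 and -0.31, and -0.47 and -0.70 relative to the median of all genes. The 12 myeloid markers averaged 10.75 ± 0.16 log2 CPM in Endpoint (n = 6) and 11.56 ± 0.34 in Vehicle TAMs (n = 5), with sums of 26641 to 32383 CPM in Endpoint and 42166 to 78336 CPM in Vehicle and no gene at 0 throughout a group. The 8 choroid plexus and ependyma markers summed to 58.3 to 152 CPM in Endpoint and 2.72 to 6.47 CPM in Vehicle TAMs. Of these, Ccdc153 was at 0 in both groups and Foxj1 at 0 in Vehicle. Neuron markers were also apart, at 21.04 to 41.7 CPM in Endpoint and 5.79 to 13.3 CPM in Vehicle TAMs. Endothelial markers were apart the other way, at 10.2 to 25.5 CPM in Endpoint and 32.1 to 63.3 CPM in Vehicle. Markers of myelinating oligodendrocytes summed to 774 to 2243 CPM in Endpoint and, with overlap, 464 to 977 CPM in Vehicle. Astrocyte sums overlapped, while their mean log2 CPM was 6.14 in Endpoint and 5.02 in Vehicle. The part of these markers in the results was not tested.

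**Figure D1:**
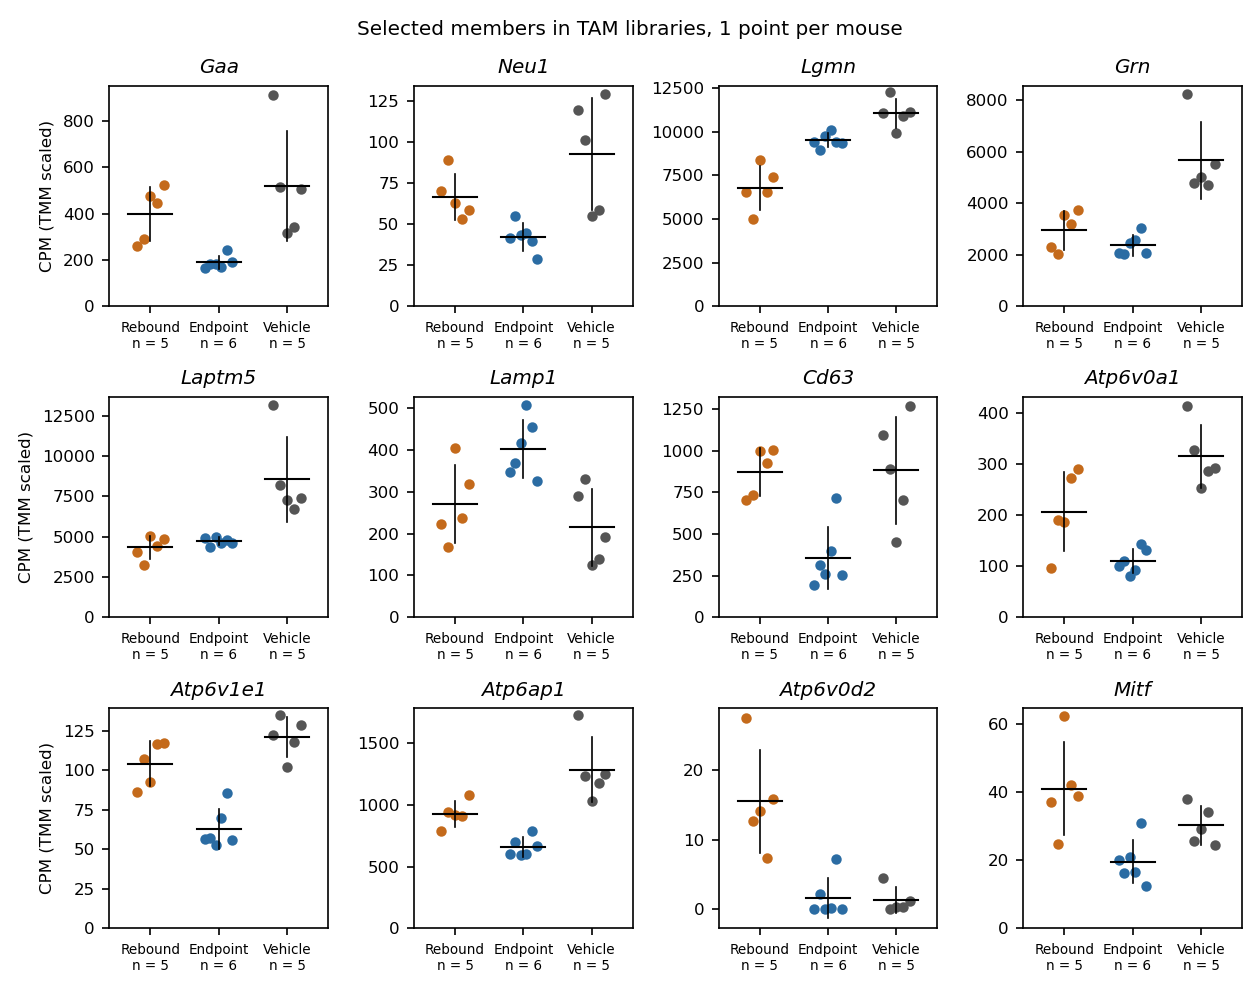
CPM of 12 members in each TAM library by group (Rebound, Endpoint, Vehicle), 1 point per mouse, with a line at the mean and a bar for the SD. Endpoint libraries lie below all Vehicle libraries for Gaa, Grn, Laptm5, Atp6v0a1, Atp6v1e1 and Atp6ap1, Lamp1 is high in Endpoint, and Atp6v0d2 is above 7 CPM in all 5 Rebound libraries.

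In Rebound TAMs, 5 of the 38 members were lower than in Vehicle TAMs and none was higher, against 7.73% and 7% of all genes tested. Those were Hexa and Lgmn among the hydrolases, Grn, Laptm5 and the pump gene Atp6v0b, and none of the 6 V1 genes passed (median log2 fold change -0.09). Over the members the median was -0.24, against 0.02 over all genes; 12 members had an unadjusted p under 0.05, and DESeq2 called 8, both counts with Atp6v0d2. This comparison shares the Vehicle libraries with the one above.

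Lgmn had 6556, 4984, 8349, 6555 and 7417 CPM in Rebound TAMs, against 9913 to 12242 CPM in Vehicle TAMs. All Rebound libraries were below all Vehicle libraries, and the log2 fold change was -0.71 (SE 0.16, adjusted p = 0.00723). Grn had 2301, 2012, 3537, 3178 and 3736 CPM in Rebound TAMs, against 4710.2 to 8238 CPM in Vehicle TAMs. Again the groups were apart, at -0.94 (SE 0.21, adjusted p = 0.00742). Laptm5 had 4041, 3262, 5056, 4441 and 4839 CPM in Rebound TAMs, against 6741 to 13155 CPM in Vehicle TAMs. It was the third member lower in Rebound without overlap, at -0.98 (SE 0.19, adjusted p = 0.00323); of all genes 5.31% were lower and 4.15% higher without overlap. Atp6v0b had 339, 424, 510.0, 565 and 629 CPM in Rebound TAMs, which overlapped the Vehicle range of 508 to 1186 CPM, with a log2 fold change of -0.78 (SE 0.24, adjusted p = 0.0319). Hexa, at -0.88 (SE 0.27, adjusted p = 0.0358), overlapped as well. The lowest adjusted p among the V1 genes was that of Atp6v1c1, 0.195, and Atp6ap1 stood at -0.47 (SE 0.16, adjusted p = 0.0534). Psap (-0.23), Gaa (-0.38), Neu1 (-0.47), Cd63 (-0.01), Atp6v0a1 (-0.60), Tfe3 (-0.50), Mitf (0.44) and Tfeb (0.13) did not pass.

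Atp6v0d2, the d subunit known from osteoclasts, had 27.4, 12.7, 14.2, 7.34 and 15.8 CPM in Rebound TAMs, against 0, 0.148 and 7.23 CPM (lowest, median and highest) in Endpoint TAMs and 4.56, 0.133, 0.359, 0.391 and 1.16 CPM in Vehicle TAMs. All 5 Rebound values were above those of both other groups, the lowest of them, in the library of mouse 49834, only just above the highest Endpoint value. Rebound is the group through which the gene passed the filter in TAMs, so no fold change or p is given.

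Without the 3 Rebound libraries that held T and NK markers, all 5 calls against Vehicle were lost (adjusted p = 0.303 for Hexa, 0.125 for Lgmn, 0.113 for Grn, 0.0749 for Laptm5 and 0.238 for Atp6v0b), with 2 Rebound libraries left. Hexa was also lost without the Rebound library of mouse 49041 or 49059 or the Vehicle library of mouse 54359 or 54363 (adjusted p = 0.084, 0.078, 0.115 and 0.0539), and Atp6v0b without the Rebound library of mouse 49041 or 49059 or the Vehicle library of mouse 54359, 54363 or 64247 (adjusted p = 0.0804, 0.0654, 0.0845, 0.0648 and 0.0643). Without Vehicle mice 57098 and 57682, 14 members were called lower, 5 hydrolases and 5 pump genes among them, and Atp6ap2 higher. In that fit 1854 of all 13972 genes tested were lower and 1552 higher. Neutrophil markers summed to 74.9 to 2723 CPM in Rebound and 28.5 to 688 CPM in Vehicle TAMs, dendritic cell markers to 522 to 1045 CPM in Rebound and 227 to 1166 CPM in Vehicle, and the 12 myeloid markers to 24633 to 43278 CPM in Rebound and 42166 to 78336 CPM in Vehicle; their part in the result was not tested.

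Between the BLZ945 groups, 13 members were higher in Rebound than in Endpoint TAMs and 1 was lower, against 11.7% and 5.9% of all genes tested. Of the 13 pump genes 8 rose, among them 5 of the 6 V1 genes, whereas 3 of the 13 hydrolases rose and 1 fell. The median log2 fold change was 0.65 over pump genes, 0.17 over hydrolases and 0.36 over the members, against 0.02 over all genes. With libraries scaled by totals the median was -0.07 over hydrolases and -0.21 over all genes. The comparison shares Rebound and Endpoint libraries with those above. Markers of other cells stood apart as well: 7 dendritic cell markers summed to 522 to 1045 CPM in Rebound and 213 to 334 CPM in Endpoint TAMs, and 7 endothelial markers to 66.4 to 150 CPM in Rebound and 10.2 to 25.5 CPM in Endpoint. None of these genes was at 0 in every library of either group. The neutrophil markers overlapped, at 74.9 to 2723 CPM in Rebound and 4.45 to 327 CPM in Endpoint, and Lyz2, the lysozyme of myeloid cells, named after its values were seen, averaged 4057 ± 538 CPM in Rebound (n = 5) and 844 ± 281 CPM in Endpoint (SD, n = 6). The part of these markers in the result was not tested.

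Atp6v1a had 266, 191, 272, 246 and 261 CPM in Rebound TAMs, and 82.4, 102 and 149 CPM (lowest, median and highest) in Endpoint TAMs. The groups did not overlap, and the log2 fold change was 1.21 (SE 0.20, adjusted p = 0.000662). Atp6v1h had 121, 135, 121, 145 and 132 CPM in Rebound TAMs, and 71.6, 78.9 and 84.3 CPM in Endpoint TAMs. It was apart too, at 0.74 (SE 0.14, adjusted p = 0.0013), as were Atp6v1e1, at 0.73 (SE 0.15, adjusted p = 0.00281), and Atp6v1b2, at 0.66 (SE 0.18, adjusted p = 0.0164). Atp6v0a1 (0.91, SE 0.23, adjusted p = 0.0104) and Atp6v0c (0.65, SE 0.20, adjusted p = 0.0269) rose with overlap, and Atp6v0b did not pass (-0.03, SE 0.22, adjusted p = 0.941).

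Of the hydrolases, Gaa had 262, 289, 475, 443 and 523 CPM in Rebound TAMs, all above the 244 CPM of the highest Endpoint library, with a log2 fold change of 1.07 (SE 0.25, adjusted p = 0.00545). Tpp1 (0.74, SE 0.20, adjusted p = 0.0137) and Ppt1 (0.41, SE 0.13, adjusted p = 0.04) rose as well. Lgmn was the member lower in Rebound than in Endpoint, where its highest Rebound library had 8349 CPM, against 8967 CPM in the lowest Endpoint library, with a log2 fold change of -0.49 (SE 0.15, adjusted p = 0.0323). Grn (0.32) and Laptm5 (-0.12) did not pass, and Cd63 rose by 1.29 (adjusted p = 0.00535). In all, 8 members (7 without Atp6v0d2) were higher and Lgmn was lower in Rebound without overlap, against 6.95% and 4.87% of all genes. Mitf had 37, 24.6, 62.2, 42.1 and 38.9 CPM in Rebound TAMs, and 12.5, 18.3 and 30.8 CPM in Endpoint TAMs. It rose, with overlap, by 1.07 (SE 0.24, adjusted p = 0.00446), while Tfeb and Tfe3 did not pass (0.23 and 0.18).

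Leaving out 1 library at a time gave 8 to 14 members higher, 8 without the Rebound library of mouse 49834 or of mouse 49849. With the 3 Rebound libraries that held T and NK markers removed 7 were higher and none lower, against 483 and 109 of all 14215 genes tested. Members lost in that setting were Ppt1, Atp6v0c, Atp6v1b2, Atp6v1c1, Atp6v1e1, Atp6ap1 and Lgmn (adjusted p = 0.21, 0.103, 0.0736, 0.142, 0.0552, 0.227 and 0.388). Tpp1 was lost without the Rebound library of mouse 49849 (adjusted p = 0.0526), Atp6v1b2 without that of mouse 49834 (adjusted p = 0.0577), and the following in several such fits. The call of Ppt1 was lost without Endpoint TAM 49823, 49825, 49830, 49831 or 49845 or Rebound TAM 49827, 49834 or 49849 (adjusted p = 0.0593 to 0.147). The call of Lgmn was lost without Endpoint TAM 49823, 49830, 49831 or 49845 or Rebound TAM 49041, 49059 or 49834 (adjusted p = 0.0529 to 0.0844). The call of Atp6v0c was lost without Endpoint TAM 49823, 49830 or 49845 or Rebound TAM 49834 or 49849 (adjusted p = 0.0566 to 0.085). The call of Atp6v1c1 was lost without Endpoint TAM 49823 or 49825 or Rebound TAM 49834 or 49849 (adjusted p = 0.0554 to 0.101). The call of Atp6ap1 was lost without Endpoint TAM 49823, 49830, 49831 or 49845 or Rebound TAM 49059, 49827, 49834 or 49849 (adjusted p = 0.0527 to 0.107).

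**Figure D2:**
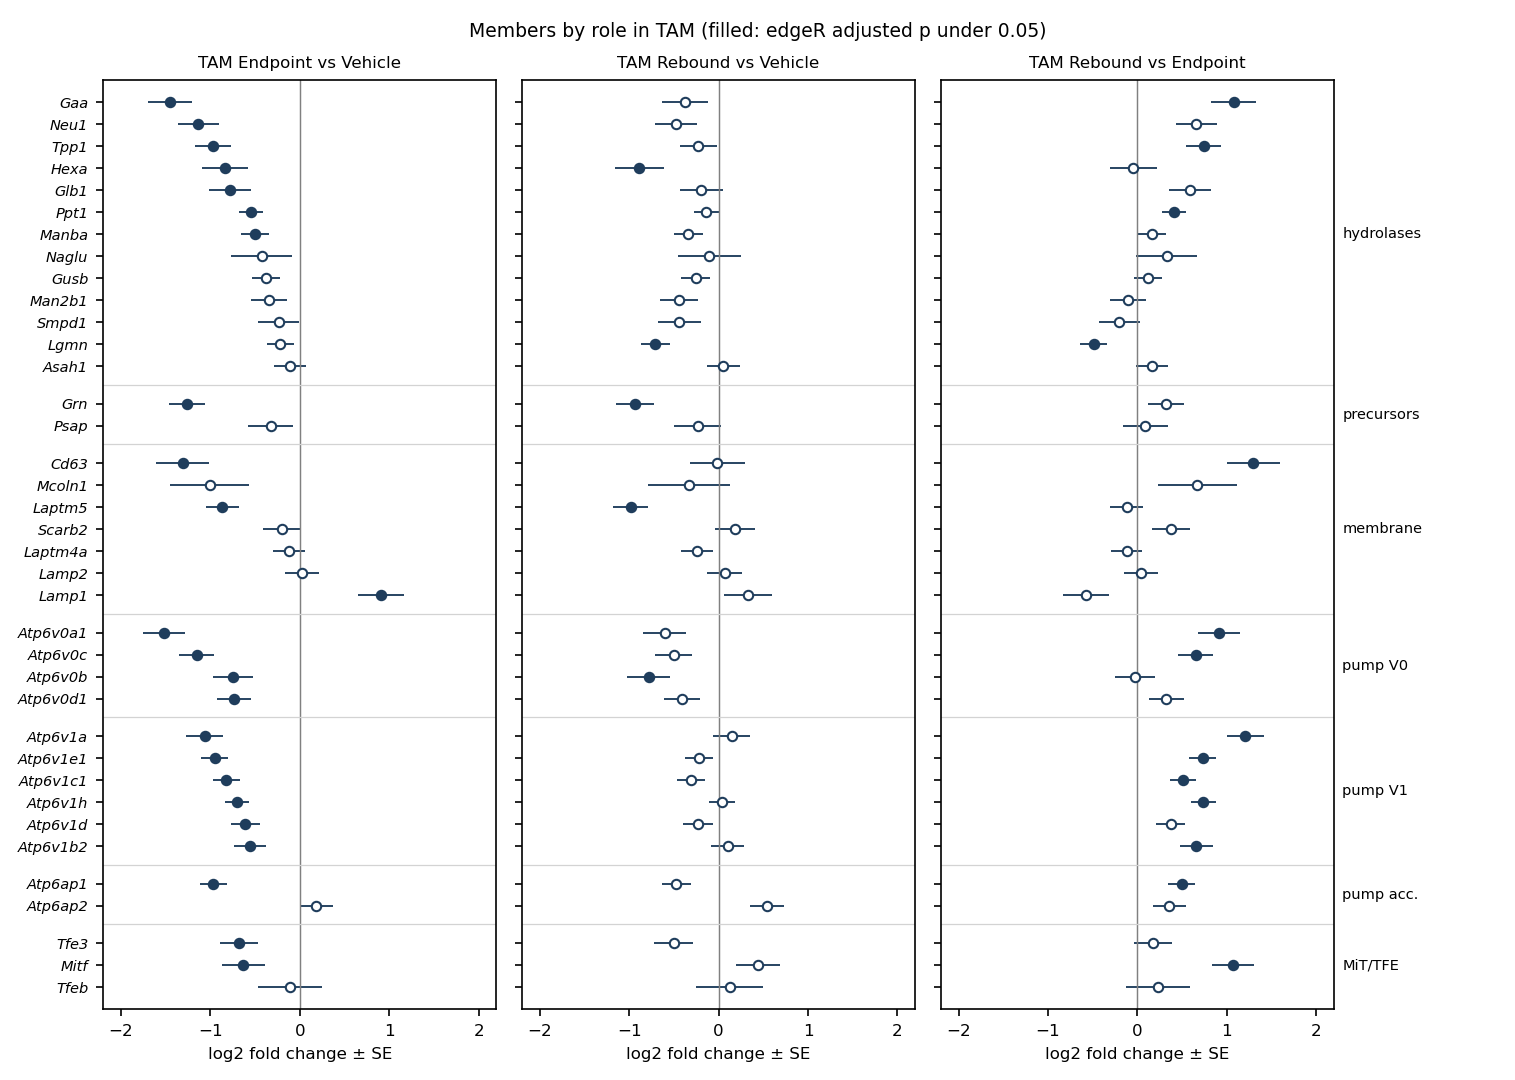
Log2 fold changes of the members in TAMs for Endpoint against Vehicle, Rebound against Vehicle and Rebound against Endpoint, with bars for the SE, filled where the adjusted p was under 0.05, and ordered by role. Atp6v0d2 is not drawn. All 13 hydrolases and 11 of the 12 pump genes drawn lie left of 0 in the Endpoint against Vehicle panel, with 11 pump genes and 7 hydrolases filled, and 5 of the 6 V1 genes are filled to the right in the Rebound against Endpoint panel.

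Hydrolases and pump were also set side by side within each library, as the mean log2 CPM of the 13 hydrolases minus that of 12 pump genes (without Atp6v0d2), with all 32 libraries scaled together. In TAMs the hydrolases averaged 9.05 in Rebound, 8.77 in Endpoint and 9.45 in Vehicle, and the pump 7.86 in Rebound, 7.26 in Endpoint and 8.16 in Vehicle. The difference was 1.18 ± 0.17 in Rebound, 1.51 ± 0.12 in Endpoint and 1.29 ± 0.25 in Vehicle TAMs (SD, n = 5, 6 and 5), ranging over 0.95 to 1.39 in Rebound, 1.33 to 1.67 in Endpoint and 1.12 to 1.71 in Vehicle. The Endpoint pump values (7.11 to 7.51) were below all Rebound (7.67 to 8.02) and Vehicle values (8.03 to 8.31), while the differences overlapped between groups. In TCs the difference was -0.67 ± 0.21 in Rebound, -0.16 ± 0.33 in Endpoint and -0.96 ± 0.17 in Vehicle, the Endpoint values running between -0.54 and 0.38, with n as in TAMs. All TC differences were below all TAM differences, and these class means are a description without a test.

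**Figure D3:**
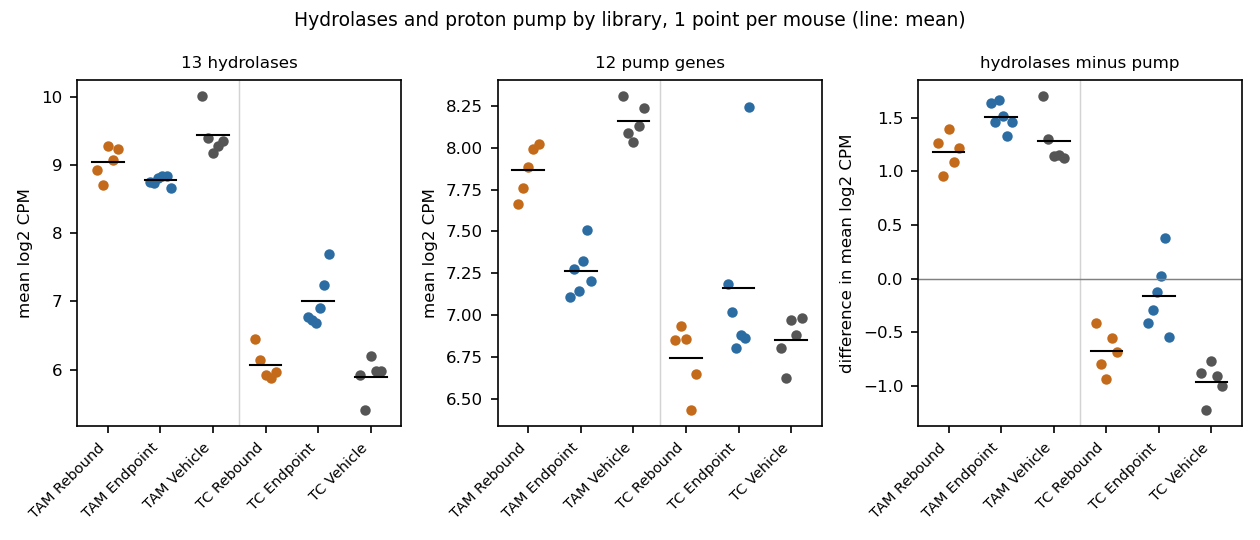
Mean log2 CPM of 13 hydrolases, of 12 pump genes, and their difference in each library of the 6 groups, 1 point per mouse with a line at the group mean. The pump means of Endpoint TAMs (7.11 to 7.51) lie below those of Rebound and Vehicle TAMs, and the differences of TCs lie below those of TAMs.

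Between cell types, 35 of the 38 members (34 of 37 without Atp6v0d2) were higher in Vehicle TAMs than in Vehicle TCs and none was lower, against 25.6% and 29.2% of all genes tested. All 13 hydrolases were higher, with a median log2 fold change of 3.34. So were the V0 genes other than Atp6v0d2, but only 3 of the 6 V1 genes (median 0.49). Over the members the median was 2.52, against -0.12 over all genes. The groups did not overlap for 30 members (29 without Atp6v0d2), higher in TAMs in each case, against 19.6% of all genes higher and 21% lower. Levels in this paragraph and the next are with all 32 libraries scaled together. Lgmn averaged 14027 ± 811 CPM in Vehicle TAMs and 290.1 ± 106 CPM in Vehicle TCs (SD, n = 5 each), a 48.4-fold difference with a log2 fold change of 5.60 (SE 0.39, adjusted p = 1.49e-12). Man2b1, an alpha-mannosidase, averaged 2098 ± 872 CPM in Vehicle TAMs and 59.3 ± 15.6 CPM in Vehicle TCs, with a log2 fold change of 5.14 (SE 0.32, adjusted p = 3.05e-13). Manba (4.06, SE 0.26, adjusted p = 3.78e-13) and Hexa (4.50, SE 0.33, adjusted p = 4.44e-12) completed the 4 lowest adjusted p-values. At the other end, Atp6v1h averaged 162 ± 31.5 CPM in Vehicle TAMs and 167 ± 19.7 CPM in Vehicle TCs, with a log2 fold change of -0.04 (SE 0.20, adjusted p = 0.872), and Atp6v1a (0.43) and Atp6v1e1 (0.28) did not pass either. Smpd1, acid sphingomyelinase, stood lowest among the hydrolases at 0.73 (SE 0.29, adjusted p = 0.0319); it did not pass with the mouse as a block (adjusted p = 0.0612) or without Vehicle TAM 54359 or Vehicle TC 54363, 57098, 57682 or 64247 (adjusted p = 0.0542 to 0.171). Atp6v0d1 (adjusted p = 0.0395) lost its call without Vehicle TAM 54359, 54363 or 64247 or Vehicle TC 54359, 57098 or 57682 (adjusted p = 0.0535 to 0.23), and Atp6v1d (adjusted p = 0.0379) with the mouse as a block (adjusted p = 0.0872) or without Vehicle TAM 57098 or 57682 or Vehicle TC 54363, 57098 or 57682 (adjusted p = 0.0609 to 0.125). With libraries scaled by totals the log2 fold changes of Smpd1, Atp6v0d1 and Atp6v1d turned to -0.22, -0.43 and -0.31. With DESeq2 size factors 32 members, Atp6v0d2 and 12 hydrolases among them, were higher, against 3689 of all 15668 genes tested. The DESeq2 test called 31 members higher, 12 hydrolases among them, against 3875 of all genes.

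In Endpoint, 23 members were higher in TAMs than in TCs and 5 were lower, against 18.7% and 32.4% of all genes tested. Without overlap, 16 were higher and 3 lower, against 11.7% and 17.4% of all genes. The 5 were Smpd1 and the V1 genes Atp6v1a, Atp6v1d, Atp6v1e1 and Atp6v1h. Atp6v1e1 averaged 73.2 ± 12.5 CPM in Endpoint TAMs and 212 ± 136 CPM in Endpoint TCs (SD, n = 6 each), without overlap and with a log2 fold change of -1.53 (SE 0.24, adjusted p = 4.54e-06). The lowest adjusted p-values were those of Gusb, beta-glucuronidase (3.17, SE 0.28, adjusted p = 6.57e-10), Lgmn (3.66, SE 0.32, adjusted p = 7.39e-10), Asah1, acid ceramidase (2.41, SE 0.22, adjusted p = 1.49e-09), and Man2b1 (2.79, SE 0.26, adjusted p = 1.95e-09). In Rebound, 31 members (30 without Atp6v0d2) were higher in TAMs and none lower, against 20.4% and 27.4% of all genes tested, with 30 (29 without Atp6v0d2) higher and none lower without overlap, against 16.5% and 20.3% of all genes. There 12 of the 13 hydrolases passed, led by Man2b1 (4.64), Lgmn (5.49), Gusb (4.06) and Manba (3.01), with adjusted p between 1.31e-11 and 1.11e-10.

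The log2 fold change of Endpoint over Vehicle differed between the cell types for 32 members (31 without Atp6v0d2), each lower in TAMs than in TCs, against 17% of all genes lower and 8.73% higher. By this test of the difference, 12 of 13 hydrolases (median -2.23) and 11 of the 12 pump genes other than Atp6v0d2 differed. TAM and TC libraries of 1 mouse are paired. With the mouse as a block 27 members differed, 11 hydrolases and 9 pump genes among them, against 2145 lower and 1327 higher of all 15926 genes tested. Gusb, Mcoln1, Atp6v0b and Atp6v1b2 lost their calls there (adjusted p = 0.0636, 0.0842, 0.0978 and 0.0871). Without the block, the lowest adjusted p-values were those of Manba (-2.39, SE 0.31, adjusted p = 1.61e-05), Neu1 (-2.66, SE 0.36, adjusted p = 1.72e-05), Psap (-3.07, SE 0.48, adjusted p = 5.66e-05) and Man2b1 (-2.35, SE 0.37, adjusted p = 6.66e-05). Asah1, Lamp1, Scarb2, Atp6v0d1, Tfeb and Tfe3 did not pass. With libraries scaled by totals 19 members were lower and Lamp1 was higher, against 1433 lower and 4107 higher of all 15668 genes tested. The call of Atp6v0b was lost without Endpoint TAM 49823 or Vehicle TAM 54359, 54363 or 64247 or Endpoint TC 49843 or 49845 or Vehicle TC 54359, 54363 or 57682 (adjusted p = 0.0515 to 0.141). That of Atp6v0a1 was lost without Vehicle TAM 54359, 54363 or 64247 or Endpoint TC 49843 or 49845 or Vehicle TC 54359, 54363 or 64247 (adjusted p = 0.0501 to 0.1), that of Atp6v1b2 without Vehicle TAM 54359, 54363 or 64247 or Endpoint TC 49843 or 49845 (adjusted p = 0.056 to 0.141) and that of Gusb without Vehicle TAM 54359, 54363 or 64247 or Endpoint TC 49843 (adjusted p = 0.0686 to 0.161). Without Vehicle TAM 54359, Atp6v0c and Mcoln1 were lost too (adjusted p = 0.0541 and 0.0596), and with no filter on low counts so were Atp6v0a1, Atp6v0b, Atp6v1b2, Atp6v1h and Gusb (adjusted p = 0.0681, 0.0844, 0.0899, 0.0547 and 0.0708). For Rebound over Vehicle no member passed the test of a difference between the cell types by edgeR or DESeq2, 7 had an unadjusted p under 0.05, and the lowest adjusted p was that of Manba (-1.05, SE 0.32, adjusted p = 0.134); of all genes 0.198% were lower and 0.319% higher. Endpoint TC libraries are those with the markers of other cells given at the outset, whose part was not tested.

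**Figure D4:**
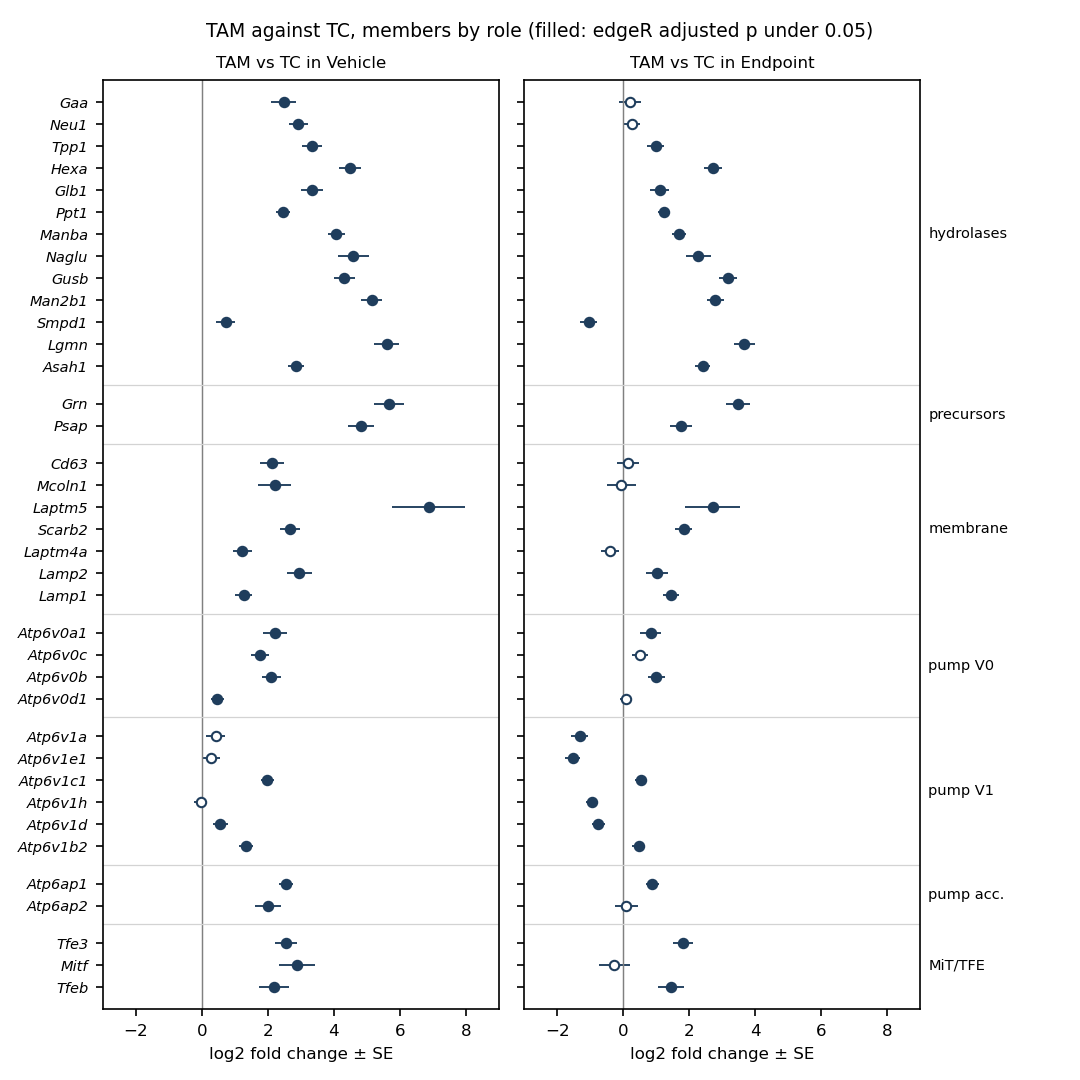
Log2 fold change of TAMs over TCs for the members in Vehicle and in Endpoint, with bars for the SE, filled where the adjusted p was under 0.05, and ordered by role. Atp6v0d2 is not drawn. In Vehicle nearly all members lie right of 0, and in Endpoint the V1 genes Atp6v1a, Atp6v1d, Atp6v1e1 and Atp6v1h and the hydrolase gene Smpd1 are filled left of 0.

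In Endpoint TCs, 15 members (14 without Atp6v0d2) were higher than in Vehicle TCs and none was lower, against 14% and 14.8% of all genes tested. Hydrolases made up 9 of the 15, of 13 measured, with a median log2 fold change of 1.32, and none of the 6 V1 genes passed (median 0.53). Over the members the median was 0.72, against 0.03 over all genes, and over pump genes it was 0.51 (0.37 without Atp6v0d2). Without the TC libraries that stood apart the median was 0.39 over the members, 1.04 over hydrolases and 0.19 over pump genes, against -0.02 over all genes. That setting keeps the Endpoint libraries with high sums of T and NK markers. Psap had 760.3, 1096 and 3768 CPM (lowest, median and highest) in Endpoint TCs, and 234, 229, 321, 169 and 268 CPM in Vehicle TCs. The groups did not overlap, the library of mouse 49845 was the highest, and the log2 fold change was 2.63 (SE 0.38, adjusted p = 0.00055). Man2b1 had 145, 217 and 486 CPM (lowest, median and highest) in Endpoint TCs, and 76.5, 53.4, 96.8, 75.9 and 52.9 CPM in Vehicle TCs. Here too the groups were apart, with a log2 fold change of 1.90 (SE 0.30, adjusted p = 0.00082). Manba had 27.6, 48.3 and 60.8 CPM (lowest, median and highest) in Endpoint TCs, and 9.68, 11.3, 19.8, 12.5 and 12.1 CPM in Vehicle TCs. Its Endpoint values were all above its Vehicle values, as were those of Neu1, at 1.78 (SE 0.29, adjusted p = 0.000973) for Manba and 1.42 (SE 0.29, adjusted p = 0.00276) for Neu1. In all, 9 members were higher without overlap and none was lower, against 6.66% and 7.43% of all genes.

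Several lists of markers of other cells ran higher in Endpoint than in Vehicle TCs, some of them with overlap. In sum over each list, 12 myeloid markers had 906 to 7536 CPM in Endpoint and 155 to 1622 CPM in Vehicle TCs. The 8 T and NK cell markers summed to 10.4 to 5152 CPM in Endpoint and 4.80 to 11.7 CPM in Vehicle TCs, and 7 markers of myelinating oligodendrocytes to 18372 to 29037 CPM in Endpoint and 2509 to 15361 CPM in Vehicle TCs. The 7 markers of pericytes and fibroblasts summed to 227 to 841 CPM in Endpoint and 10.7 to 128 CPM in Vehicle TCs. Astrocyte markers overlapped, at 4168 to 6199 CPM in Endpoint and 2473 to 14091 CPM in Vehicle TCs. So did neuron markers, at 303 to 386 CPM in Endpoint and 244 to 393 CPM in Vehicle TCs. None of these or of the choroid plexus and ependyma genes was at 0 in every library of either group, and Pdgfra, the sort marker, averaged 141 CPM in Endpoint and 1661 CPM in Vehicle TCs. Their part in the result was not tested. Laptm5, known from blood cells, had 224, 1163 and 1422 CPM in Endpoint TCs and 105, 192, 115, 28.7 and 119.8 CPM in Vehicle TCs, apart but not past the test (3.19, SE 1.23, adjusted p = 0.0644). Without Endpoint libraries 49843 and 49845 and Rebound library 49827, which stood apart, 15 members, Atp6v0d2 among them, were higher and Atp6v0d1 was lower, and Hexa's call was lost (adjusted p = 0.0792). In that fit 2656 of all 15051 genes tested were higher and 2908 lower. Without Vehicle mice 57098 and 57682, 9 members were higher and Atp6v0d1 was lower, against 1067 higher and 1616 lower of all 15596 genes tested. Hexa, Naglu, Lgmn, Laptm4a and Mitf lost their calls there (adjusted p = 0.122, 0.0578, 0.0663, 0.0504 and 0.116). Hexa's call was also lost without Endpoint TC 49831 or 49843 or Vehicle TC 54359, 54363, 57098, 57682 or 64247 (adjusted p = 0.0502 to 0.0712).

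In Rebound TCs against Vehicle TCs no member passed the test by edgeR or DESeq2, where 0.04% of all genes were higher and 0.0334% lower; 5 members, Atp6v0d2 among them, had an unadjusted p under 0.05, and 1, Psap, was higher in Rebound without overlap, against 1.84% of all genes higher and 2.72% lower. Apart from Atp6v0d2, the lowest adjusted p-values were those of Mcoln1, a calcium channel of the lysosomal membrane (1.27, SE 0.48, adjusted p = 0.233), Laptm4a (0.77, SE 0.34, adjusted p = 0.303) and Manba (0.66, SE 0.29, adjusted p = 0.307). Atp6v0d2 had 0.881, 0.354, 0, 1.1 and 0 CPM in Rebound TCs (mice 49041, 49059, 49692, 49827 and 49849), and 0, 0, 0.0387, 0 and 0 CPM in Vehicle TCs, too few counts for a fold change. Mcoln1 had 30.3, 26.3, 23.9, 6.61 and 23 CPM in Rebound TCs, and 4.51, 7.51, 6.38, 6.94 and 20.5 CPM in Vehicle TCs. All Rebound libraries but that of mouse 49827 were above all Vehicle libraries. Without the 3 libraries that stood apart, Laptm4a and Mcoln1 were called higher and Laptm5 and Atp6v1d lower, against 314 higher and 798 lower of all 15051 genes tested. Relative to Endpoint TCs, 16 members were lower in Rebound TCs and none was higher, against 11.5% and 13.6% of all genes tested, 8 of them hydrolases and 4 pump genes. Lgmn (-2.28, SE 0.41, adjusted p = 0.00174), Man2b1 (-1.91, SE 0.30, adjusted p = 0.000964), Psap (-1.85, SE 0.36, adjusted p = 0.00282) and Neu1 (-1.37, SE 0.29, adjusted p = 0.00401) had the lowest adjusted p-values, and 6 members were lower and none higher without overlap, against 6.15% and 6.84% of all genes. Without the Rebound library of mouse 49692, 9 were lower, and 10 without that of mouse 49059 or of mouse 49849. Without the 3 libraries that stood apart 11 were lower and Atp6v0a1 was higher, against 3185 lower and 2930 higher of all 15051 genes tested. The calls of Hexa, Naglu, Tpp1, Grn, Lamp1 and Atp6ap2 were lost there (adjusted p = 0.228, 0.194, 0.0605, 0.0619, 0.11 and 0.0946). Rebound TCs summed to 26.1 to 917 CPM of myeloid and 1.66 to 949 CPM of choroid plexus and ependyma markers, and the part of these in the difference was not tested. Laptm5 had 10.8, 8.26, 8.43, 994 and 11 CPM in Rebound TCs. Its high value stood in the library with 2987 CPM of T and NK markers and 917 CPM of myeloid markers. The other Rebound TC libraries held 26.1 to 60.3 CPM of myeloid markers, and the source of the high value was not tested.

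**Figure D5:**
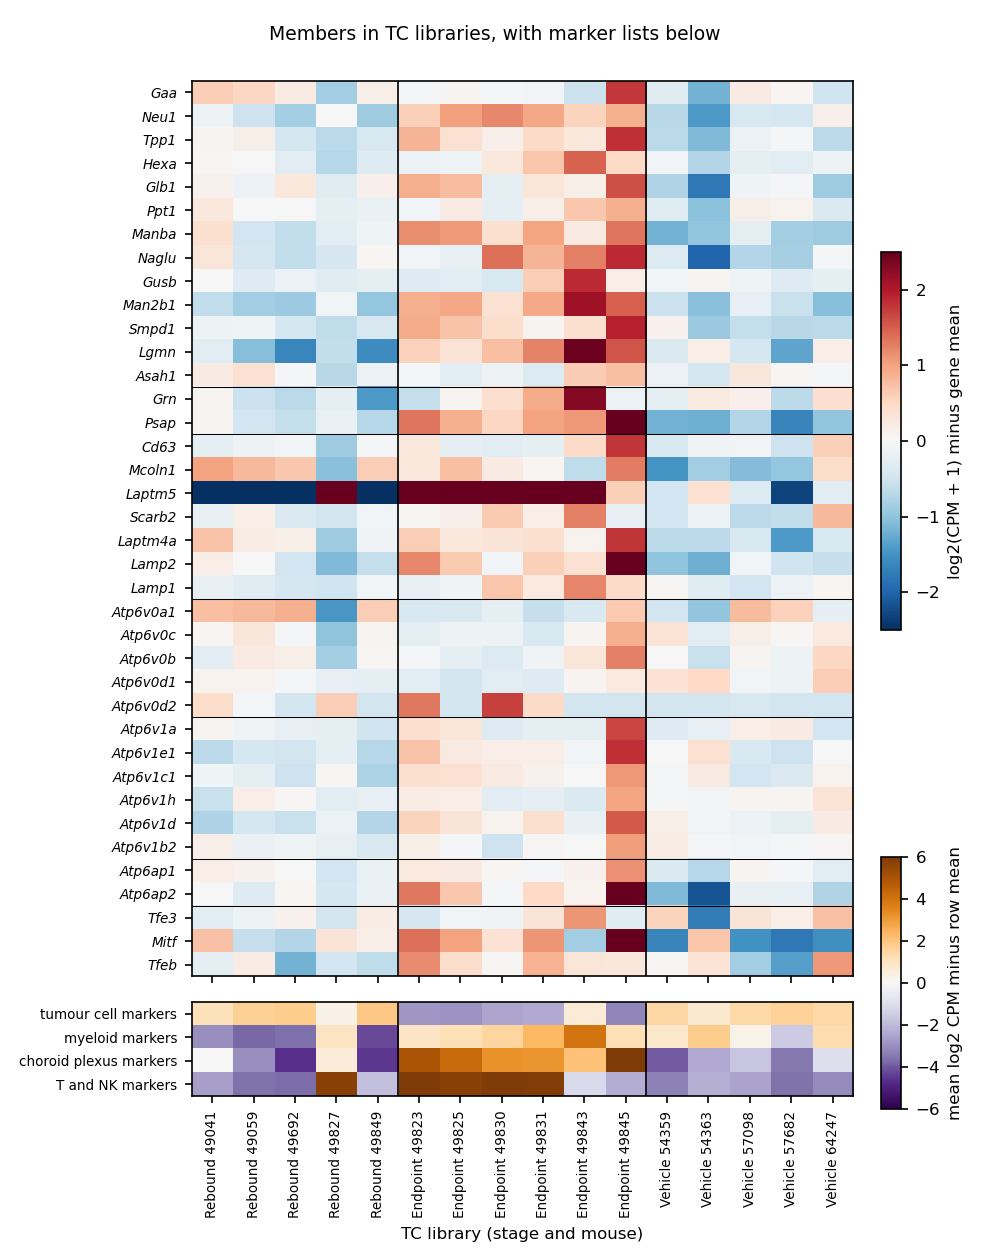
Members in each TC library of the 3 groups as log2(CPM + 1) minus the gene's mean, with colours ending at 2.5 in either direction, and 4 marker lists beneath as mean log2 CPM minus the row's mean. Most hydrolase rows are high in Endpoint columns, as is the row of choroid plexus and ependyma markers. The row of myeloid markers overlaps between Endpoint and Vehicle columns.

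Genes of the same pathway that are not members were taken from 6 lists. In Endpoint against Vehicle TAMs, 12 of 24 other lysosomal hydrolases fell and none rose, against 19.3% of all genes lower and 13.7% higher, with a median log2 fold change of -0.48. Galns, which removes sulfate from glycosaminoglycans, stood at -1.85 (SE 0.22, adjusted p = 1.34e-05). Of 12 transporters of the lysosomal membrane 5 fell and none rose, led by Clcn7, a chloride-proton exchanger (-1.44, SE 0.14, adjusted p = 1.93e-06), and Cln3, the protein lost in juvenile Batten disease (-1.21, SE 0.15, adjusted p = 1.99e-05). Of 12 other pump genes 7 were tested, of which 3 fell and 1 rose. Atp6v0a2, another isoform of the large V0 subunit, was at -1.11 (SE 0.14, adjusted p = 2.34e-05) and Atp6v1g1, a stalk subunit, at -0.57 (SE 0.17, adjusted p = 0.0146), while Tcirg1, the isoform known from osteoclasts, did not pass (-0.45, SE 0.18, adjusted p = 0.0617). In the list for sorting by mannose 6-phosphate, 3 of 10 fell and 1 rose, namely Gnptab, a subunit of the enzyme that makes the sorting tag (0.91, SE 0.16, adjusted p = 0.000363); of those that fell, Gga3, a sorting adaptor, was at -0.77 (SE 0.17, adjusted p = 0.00184). Among 12 tested genes for docking of the kinase mTORC1 to the lysosome, 3 fell and 2 rose, with Lamtor3, a Ragulator subunit, at -0.67 (SE 0.17, adjusted p = 0.00482) and Fnip1, a folliculin partner, at 0.83 (SE 0.21, adjusted p = 0.0056). Among 10 autophagy genes and TFE targets, 3 fell and 1 rose, with Vps18 and Vps11, subunits of the HOPS tethering complex, at -1.16 (SE 0.16, adjusted p = 3.95e-05) and -0.92 (SE 0.14, adjusted p = 0.000116), and Tfec, a relative of the 3 factors, did not pass (-2.14, SE 1.13, adjusted p = 0.155). In the last 3 of these lists 25 to 30% of the genes tested fell and 10 to 16.7% rose, near the shares over all genes. In Rebound against Endpoint TAMs 8 of the 24 other hydrolases rose and 2 fell, against 11.7% of all genes higher and 5.9% lower. In Endpoint against Vehicle TCs 14 of them rose and none fell, against 14% of all genes higher and 14.8% lower.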

How the data were processed

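RNA sequencing of sorted cells gave 32 libraries, 16 of TAMs and 16 of TCs, from 17 mice. Per the labels' protocols, a SMART-Seq kit without strand marking was used, with paired reads of 50 bases. The submitters' processing notes name STAR 2.3.0e, SAMtools and mm10; how reads were counted per gene, and on which annotation, is not given in the sources used here. The authors deposited raw whole-number counts, 1 row per gene symbol, and these were used unchanged. Groups were read from the labels (cell type, stage). Because the label for the agent is BLZ945 throughout, also for Vehicle, treatment was taken from the stage.

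Counts were tested with edgeR 4.0.16 in R 4.3.3 (filterByExpr, TMM scaling, estimateDisp, robust glmQLFit, glmQLFTest), and p was adjusted by Benjamini-Hochberg over all genes tested, with calls at 0.05. Each cell type had its own fit of 16 libraries (13315 genes in TAMs, 14985 in TCs), and comparisons between cell types came from 1 fit of 32 libraries (15668 genes). SEs of log2 fold changes come from the F statistic. Endpoint against Vehicle within TAMs and within TCs, and TAMs against TCs in Vehicle, were tried on simulated counts before use. The simulated counts had less spread between libraries than the fits found, and the other comparisons were not simulated. Mean log2 CPM used a prior count of 2, and levels per kb the exon length in GENCODE. Alternatives were DESeq2 1.42.0 and its size factors, scaling by totals, no filter, only the 2 groups compared, the mouse as a block and leaving out each library. Halving the BLZ945 counts was also tried, and 3 alternatives that leave out libraries were chosen after seeing the data.

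Libraries of the same number are from the same mouse, so TAM and TC libraries of 15 mice are paired. Their deviations from the group means correlated at 0.011 to 0.337, 5 of the 15 pairs over 0.1. Replicates are different mice, and libraries of a group differed from each other by more than sampling noise (chi-square per degree of freedom at least 20.98).

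The members and lists were chosen with earlier results of these data known. Genes named are, in each role, the 2 members with the lowest adjusted p in Endpoint against Vehicle TAMs and the 1 lowest in Rebound against Vehicle TAMs, plus Atp6v0d1, Atp6v0d2 and the 3 factors. In other comparisons they are the 4 members with the lowest adjusted p, and in each pathway list up to 2 genes, plus Tcirg1 and Tfec. A gene named by this rule is not reported here. Members named outside this rule, as those whose calls changed with a setting, were chosen after their values were seen.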

Additional observations from a re-analysis of the deposited data

Results flagged for a closer look

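In 57 groups of 5 or 6 libraries examined for 1 value far from the others, 6 stood out, where chance gives about 1 in 20. In the Endpoint TAM library of mouse 49843, Gaa had 244 CPM against 191 CPM in the next library, Atp6v0d2 had 7.23 CPM against 2.15 CPM, and Tfeb had 29.7 CPM against 23.4 CPM. In the Vehicle TAM library of mouse 54359, Grn had 8238 CPM against 5529 CPM in the next library, Laptm5 had 13155 CPM against 8209 CPM, and Atp6v0d2 had 4.56 CPM against 1.16 CPM.

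The log2 fold change of Endpoint over Vehicle differed between TAMs and TCs for 32 members (31 without Atp6v0d2) by the test of the difference itself. The values with the lowest adjusted p (edgeR) were -2.39 for Manba (adjusted p = 1.61e-05), -2.66 for Neu1 (1.72e-05), -3.07 for Psap (5.66e-05) and -2.35 for Man2b1 (6.66e-05). Endpoint TC libraries also held markers of other cells, and the part of these markers in the values was not tested.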

How the results depend on the processing

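In Endpoint against Vehicle TAMs the members called lower, 23, moved by over 1.5 times only with libraries scaled by totals (12, with 2 higher), which also turned Lgmn to 0.20, Psap to 0.13 and Tfeb to 0.38; Atp6v0d2 turned to -0.29 without Vehicle mice 57098 and 57682, and leaving out 1 library gave it -1.38 to 1.64 and Tfeb -0.35 to 0.21. Scaling by totals moved the share of calls that were higher, against TMM, to 76.8 from 41.5% (Endpoint against Vehicle TAMs), 71.6 from 47.5% (Rebound against Vehicle TAMs), 37.8 from 66.4% (Rebound against Endpoint TAMs), 34.1 from 48.6% (Endpoint against Vehicle TCs), 73.0 from 54.3% (Rebound against Endpoint TCs), 21.6 from 46.7% (Vehicle, TAMs against TCs), 19.9 from 42.7% (Rebound, TAMs against TCs), and 74.1 from 34.0% and 82.4 from 61.7% for the TAM and TC difference in Endpoint and Rebound. It moved the median of all genes to 0.39, 0.20 and -0.21 in TAMs (Endpoint against Vehicle, Rebound against Vehicle, Rebound against Endpoint), -0.21, 0.11 and 0.28 in TCs in that order, -1.0, -0.32 and -0.88 between cell types (Vehicle, Endpoint, Rebound) and 0.60 and 0.13 for the 2 differences. In Rebound against Vehicle TAMs 3 members were lower with totals and with only the 2 groups, 0 without the T and NK libraries, 14 without mice 57098 and 57682 and 3 to 7 leaving out 1 library; 2 were higher with totals and with DESeq2 (1 of them Atp6v0d2), 1 with counts halved, with only the 2 groups and without those mice, and 0 to 1 leaving out 1. All genes called there were 999 with only the 2 groups, 525 without the T and NK libraries and 3406 without those mice, of 1961. In Rebound against Endpoint TAMs 2 were lower with totals and with only the 2 groups, 0 without the filter and without the T and NK libraries, and 0 to 2 leaving out 1; 7 were higher without the T and NK libraries, 8 to 14 leaving out 1, with 592 genes called in all without those libraries, of 2337. In Endpoint against Vehicle TCs 1 was lower with totals, without mice 57098 and 57682 and without the TC libraries that stood apart, and 0 to 1 leaving out 1; without those mice 9 were higher and 2683 genes were called, of 4305. In Rebound against Vehicle TCs 2 were lower and 2 higher without the TC libraries that stood apart, and 0 to 1 lower leaving out 1; of all genes 21 were called with totals, 601 with DESeq2, 25 with counts halved, 0 with only the 2 groups, 567 without those mice, 1112 without the libraries that stood apart and 0 to 586 leaving out 1, of 11. In Rebound against Endpoint TCs 9 were lower and 2 higher with totals, 9 to 16 lower and 0 to 1 higher leaving out 1, and 1 higher with 6115 genes called without the libraries that stood apart, of 3758. Between cell types, totals gave 3 members lower in Vehicle (Smpd1 -0.22, Atp6v0d1 -0.43, Atp6v1d -0.31), 4 lower in Rebound, and 19 lower and 1 higher for the difference in Endpoint. For the difference in Rebound, all genes called were 379 with DESeq2 and 36 to 605 leaving out 1, with 0 to 1 member higher. With the mouse as a replicate block, 27 members differed in Endpoint, and 4 of all genes were called for the difference in Rebound, against 81; the block ended the calls of Smpd1 and Atp6v1d in Vehicle and of Gusb, Mcoln1, Atp6v0b, Atp6v0d2 and Atp6v1b2 for the difference in Endpoint, and no other call of a member. The causes were not tested beyond what each setting removes, and counts of Atp6v0d2 limit its values.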

Other observations

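The 2 Vehicle TAM libraries with a low share of Rn45s had other levels of several members than the other 3. Mcoln1 had 4.17 and 10.1 CPM in the libraries of mice 57098 and 57682, and 53.4, 43.9 and 27.2 CPM in those of mice 54359, 54363 and 64247. Naglu, which removes terminal N-acetylglucosamine from heparan sulfate, had 55.7 and 86.3 CPM in the same 2 libraries, and 302, 214 and 204 CPM in the other 3. Smpd1 had 55.7 and 47.5 CPM in those 2, and 138, 84.1 and 83.6 CPM in the other 3. The share of Rn45s was low in the TC libraries of these 2 mice as well, and its part in these values was not tested.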
